A study of Mus musculus with 7 samples.

Results

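Levels of 6 genes, the T cell inhibitory receptors Pdcd1 (ENSMUSG00000026285), Ctla4 (ENSMUSG00000026011), Lag3 (ENSMUSG00000030124), Havcr2 (ENSMUSG00000020399) and Tigit (ENSMUSG00000071552) and the transcription factor gene Tox (ENSMUSG00000041272), were measured in the cells of 7 mouse tumors. The genes were found by symbol among the 33696 genes of the deposited count matrices. All 7 were allografts of JW23.3, a mouse malignant peripheral nerve sheath tumor (MPNST) line that lacks Nf1, placed subcutaneously in wild-type C57/B6 females aged 5 to 6 weeks. Mice were randomized on day 7, and all tumors were harvested on day 21. In the irradiated group 4 tumors received 2 Gy a day for 5 days, with shielding outside the tumor, and the 3 tumors of the control group received no radiation. Every tumor was made with the same line, so the groups speak for that line alone.

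The receptors are brakes on T cells. PD-1 (Pdcd1), CTLA-4 (Ctla4), LAG-3 (Lag3), TIM-3 (Havcr2) and TIGIT (Tigit) appear on T cells after antigen stimulation, and their joint, lasting presence on CD8 T cells in tumors and chronic infection is known as exhaustion. TOX, a nuclear DNA-binding protein, is required for the exhausted state and also acts in T cell development. CTLA-4 is carried at high levels by regulatory T cells, which are marked by the transcription factor FOXP3, and TIM-3 is also found on macrophages and dendritic cells.

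Transcription of several of these genes is driven by NFAT, a factor activated by the T cell receptor, whose core binding letters are GGAAA. The 250 bases upstream of the annotated start were at hand for 4 of the 6 genes from RefSeq (build GRCm38.p6) and are shown because they are the proximal control sequences of the genes whose levels are compared below. They are written 5′ to 3′ on the strand of the gene, and capitals mark the NFAT core letters or their reverse complement TTTCC. The windows lie at chr1:94052554-94052803 (minus strand) for Pdcd1, chr1:60908775-60909024 (plus strand) for Ctla4, chr11:46454681-46454930 (plus strand) for Havcr2 and chr16:43664185-43664434 (minus strand) for Tigit.
Pdcd1: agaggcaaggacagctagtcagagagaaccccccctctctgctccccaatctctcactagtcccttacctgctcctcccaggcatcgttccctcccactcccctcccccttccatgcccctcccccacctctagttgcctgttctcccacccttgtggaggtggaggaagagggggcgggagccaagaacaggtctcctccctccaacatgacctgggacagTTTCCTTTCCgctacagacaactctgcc
Ctla4: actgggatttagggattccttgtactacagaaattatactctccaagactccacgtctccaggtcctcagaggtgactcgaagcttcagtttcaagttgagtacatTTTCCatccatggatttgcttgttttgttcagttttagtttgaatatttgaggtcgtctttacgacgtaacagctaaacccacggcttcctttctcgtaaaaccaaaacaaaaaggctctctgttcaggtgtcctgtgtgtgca
Havcr2: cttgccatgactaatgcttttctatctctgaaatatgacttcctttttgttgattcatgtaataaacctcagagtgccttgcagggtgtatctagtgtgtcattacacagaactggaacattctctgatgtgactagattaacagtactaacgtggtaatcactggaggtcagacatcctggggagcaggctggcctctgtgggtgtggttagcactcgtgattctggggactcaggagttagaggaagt
Tigit: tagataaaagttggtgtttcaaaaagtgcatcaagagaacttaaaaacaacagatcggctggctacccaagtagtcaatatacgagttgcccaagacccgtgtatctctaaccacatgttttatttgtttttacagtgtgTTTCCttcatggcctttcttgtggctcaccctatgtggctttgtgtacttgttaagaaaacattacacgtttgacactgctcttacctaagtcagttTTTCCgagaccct
The core letters occurred 2 times in the Pdcd1 and Tigit windows, 1 time in the Ctla4 window and 0 times in the Havcr2 window, on either strand. They were present in 55.6% of 32851 windows of the same length, so their presence is common. The AP-1 letters TGANTCA, present in 6.75% of windows, were found among the 4 in the Havcr2 window only, and the RUNX letters TGTGGT, present in 14.0%, in the Havcr2 and Tigit windows. Lag3 and Tox had no entry in the table of windows.

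Cells were assigned by marker UMIs (unique molecular identifiers, each standing for 1 captured RNA molecule). Of 39537 cells, 34296 passed the filter on UMIs, genes detected and mitochondrial and ribosomal shares, and the libraries held 53496570 to 153044123 UMIs each. The T cell gate, defined by CD3 and T cell receptor genes, held 1279 cells, 113 to 243 per tumor, with a median of 3494 UMIs per cell. Within it, 317 were CD8 T cells (Cd8a or Cd8b1, no Cd4 or Foxp3), 270 were conventional CD4 T cells (Cd4, no Foxp3 or CD8 gene) and 210 were Foxp3 T cells. The other 482 T cells stayed outside these 3 gates, 461 of them because no Cd4, Cd8a, Cd8b1 or Foxp3 UMI was captured. A further 12243 cells were monocytes and macrophages, 281 were dendritic cells and 29 were natural killer (NK) cells. As a background for detection, 8272 tumor-side cells were taken, which carried tumor genes and no Xist or Ptprc UMI. They were not free of all 6 genes, since Tox (5.33 CPM, that is UMIs of the gene per 1000000 UMIs) and Lag3 (3.97 CPM) were above their levels in monocytes and macrophages (0.390 and 1.74 CPM).

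Markers that no gate used separated the gates, though only in part among the T gates. Cd2 was detected in 72.3% of T cells and 0.169% of tumor-side cells. Nkg7, a cytotoxic granule gene, was found in 91.8% of CD8, 23.7% of conventional CD4 and 10.5% of Foxp3 T cells and 0.181% of tumor-side cells. Ccl5 was found in 81.7% of CD8, 36.7% of conventional CD4 and 37.1% of Foxp3 T cells and 8.05% of tumor-side cells. Gzmk was at 61.6 CPM in CD8 and 55.7 CPM in conventional CD4 T cells. It was found in 25.6% and 6.30% of these cells and 5.90% of tumor-side cells. Ikzf2, a gene of regulatory T cells, was at 3211 CPM in Foxp3 T cells, 332 CPM in CD8 T cells and 74.4 CPM in tumor-side cells. Conventional CD4 T cells, gated without a Foxp3 UMI, also had 2000 CPM of it. Il2ra, another such gene, was found in 35.2% of them and 71.0% of Foxp3 T cells. Whether the conventional CD4 gate held regulatory T cells whose Foxp3 RNA was not captured was not tested, which limits every comparison of these 2 gates. Apoe was at 11447 CPM in monocytes and macrophages and 60.5 CPM in tumor-side cells, and Cd74 at 10529 CPM in dendritic cells and 10.7 CPM in tumor-side cells. Tumor RNA was present in the T cell gate as well, with Col1a1, detected in 98.3% of tumor-side cells, in 24.0% of T cells. The NK gate was weakly marked (Klrk1 in 44.8%, Gzma in 27.6% and Col1a1 in 48.3% of its 29 cells, 2 to 10 cells per tumor), so no level or test is given for it. It held 2 UMIs of Pdcd1, 10 of Ctla4, 4 of Lag3, 4 of Havcr2, 3 of Tigit and 25 of Tox. By 5 measures of cell number, depth, mitochondrial share and stress genes, the libraries were split into 2 technical sets, one holding irradiated 1, control 2 and control 3, the other irradiated 2, 3 and 4 and control 1. The sets come from these data and not from the labels, as the best of 63 splits, and the separation was weak (a fraction of 0.585 of the variation stayed within the sets, against 0.628 for the next split). Of the retained barcodes, 136 occurred in more than 1 library.

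For 4 of the 6 genes, most UMIs summed over the tumors lay in T cells. These held 80.9% of all Pdcd1 UMIs in the 7 tumors (739 of 914), 75.2% of Tigit UMIs (459 of 610), 71.5% of Tox UMIs (6449 of 9024) and 69.9% of Ctla4 UMIs (4750 of 6791). The share varied between tumors, from 69.2% to 88.7% for Pdcd1, 63.0% to 86.2% for Tigit, 57.4% to 89.3% for Tox and 34.3% to 91.0% for Ctla4. CD8 T cells alone held 42.8% of the Pdcd1 UMIs, and Foxp3 T cells held the largest part of the Ctla4 UMIs among the T gates, at 30.8% (8.37% to 53.7% per tumor). Havcr2 and Lag3 were different. Monocytes and macrophages held 84.3% of the 21466 Havcr2 UMIs, between 82.0% and 87.0% in each tumor, and T cells held 2.86%. For Lag3, T cells held 10.1% of 1754 UMIs (3.68% to 34.5% per tumor), tumor-side cells 29.3% and monocytes and macrophages 10.3%. Dendritic cells held 2.96% and NK cells 0.228%. The rest, a larger part than any gate held, lay in cells of no gate. The mean Lag3 level of tumor-side cells was nevertheless 3.97 CPM, against 44.7 CPM in CD8 T cells. A Lag3 or Havcr2 value taken over a whole tumor was therefore mostly not a T cell value.

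**Figure D1:**
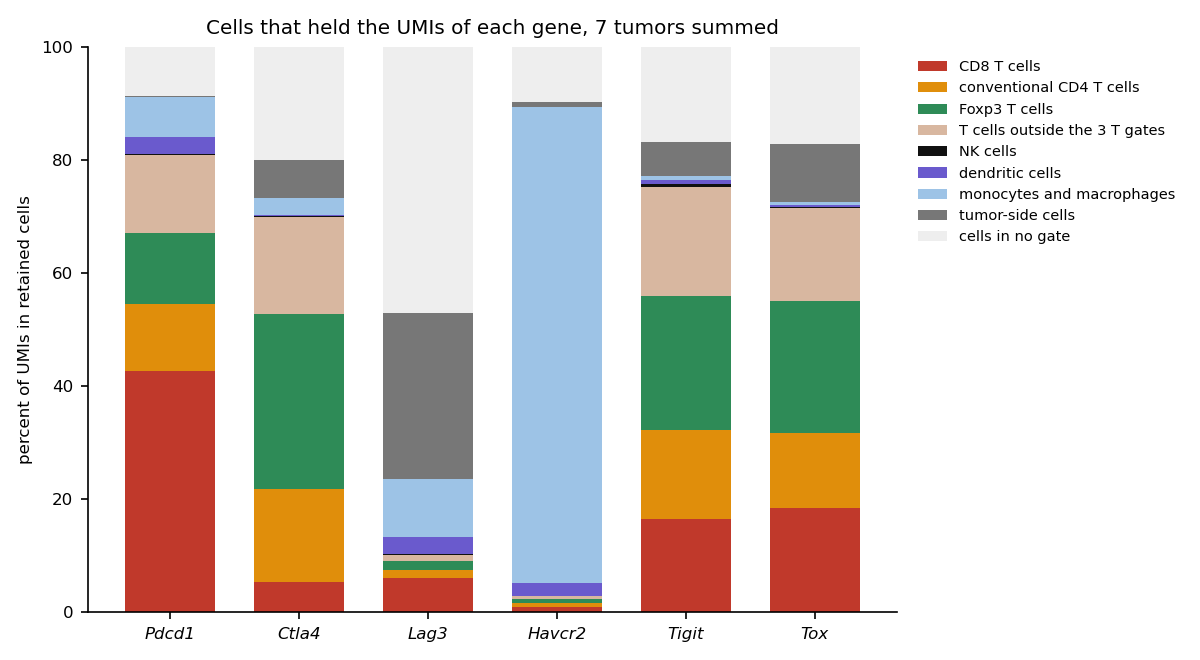
Percent of all UMIs of each gene (vertical axis, 0 to 100) held by the cells of each gate, summed over the 7 tumors, with cells in no gate in pale grey. T cell gates hold 80.9% of Pdcd1 UMIs but 2.86% of Havcr2 UMIs, and monocytes and macrophages hold 84.3% of the latter.

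Levels are given as CPM, UMIs of the gene per 1000000 UMIs summed over the cells of a gate in 1 tumor, as mean ± SD over tumors with at least 20 cells in the gate. Irradiated 2 (18 and 17 cells) was thus left out of the CD8 and CD4 gates, and irradiated 1 and control 3 (17 and 18 cells) out of the Foxp3 gate. Gates were compared in 1 edgeR quasi-likelihood fit over 5 gates with tumor as a term and Benjamini-Hochberg adjustment over 7972 genes. Tumors of both groups entered this fit.

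Pdcd1, which encodes PD-1, was highest in CD8 T cells. Its level there was 172 ± 82.0 CPM (n = 6), against 89.1 ± 36.0 CPM in conventional CD4 (n = 6) and 76.4 ± 39.3 CPM in Foxp3 T cells (n = 5). Over the tumors, the CD8 level ran from 37.6 CPM in control 2 to 268 CPM in irradiated 3. The CD8 level exceeded that of Foxp3 T cells by 1.45 ± 0.31 on the log2 scale (SE, adjusted p = 0.00152, edgeR), in a comparison that called 12.6% of all genes. It exceeded that of CD4 T cells by 0.94 ± 0.28 (adjusted p = 0.0287, edgeR, 9.96% of genes called), and the latter call was lost when irradiated 1, irradiated 3, irradiated 4 or control 1 was left out (adjusted p up to 0.113). CD4 and Foxp3 T cells were not separated (0.52 ± 0.33, adjusted p = 0.571, edgeR, 1.22% of genes called). Outside T cells the level was 6.68 ± 5.83 CPM in dendritic cells and 0.600 ± 0.171 CPM in monocytes and macrophages (n = 7 each).

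Ctla4 had the opposite order among T cells. It was 1459 ± 661 CPM in Foxp3 T cells (n = 5), 909 ± 336 CPM in conventional CD4 (n = 6) and 150 ± 56.3 CPM in CD8 T cells (n = 6). The highest CD8 tumor with enough cells (irradiated 1, 198 CPM) was below the lowest CD4 tumor (control 2, 343 CPM), so these gates did not overlap. CD8 T cells were lower than Foxp3 T cells by -3.25 ± 0.40 on the log2 scale (adjusted p = 4.08e-06, edgeR) and lower than CD4 T cells by -2.54 ± 0.36 (adjusted p = 4.79e-05, edgeR). Both calls held without any single tumor. The CD4 to Foxp3 difference was -0.70 ± 0.38 (adjusted p = 0.470, edgeR), so the order of these neighbours is not settled. Dendritic cells, at 5.59 ± 6.50 CPM, and monocytes and macrophages, at 1.94 ± 0.649 CPM, were near the 2.70 ± 2.17 CPM of tumor-side cells.

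Tigit and Tox were T cell genes with no called difference among the T gates. Tigit, a receptor that competes with the activating receptor CD226 for shared ligands, was 100 ± 35.9 CPM in Foxp3, 72.4 ± 37.2 CPM in conventional CD4 and 45.2 ± 18.3 CPM in CD8 T cells. The CD8 to Foxp3 difference was -0.85 ± 0.37 on the log2 scale (adjusted p = 0.141, edgeR). Tox was 1478 ± 522 CPM in Foxp3, 943 ± 231 CPM in conventional CD4 and 748 ± 220 CPM in CD8 T cells, and the CD8 to Foxp3 difference was -0.62 ± 0.42 (adjusted p = 0.415, edgeR). Both were near 0 in myeloid cells. Monocytes and macrophages had 0.0479 ± 0.0633 CPM of Tigit and 0.390 ± 0.369 CPM of Tox, and dendritic cells had 0.976 ± 1.68 and 7.35 ± 9.03 CPM. The dendritic gate held 28 UMIs of Pdcd1, 19 of Ctla4, 4 of Tigit and 27 of Tox over the 7 tumors, too few for a fold against the T gates.

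Lag3, which encodes a receptor for MHC class II, was low everywhere. CD8 T cells had 44.7 ± 36.4 CPM (n = 6), Foxp3 T cells 17.1 ± 14.96 CPM (n = 5), conventional CD4 T cells 15.4 ± 18.5 CPM (n = 6) and dendritic cells 12.7 ± 10.8 CPM (n = 7). The CD8 level rested in part on irradiated 4, at 114 CPM, while the other tumors had 10.7 to 48.4 CPM. CD8 T cells were above dendritic cells by 1.84 ± 0.57 on the log2 scale (adjusted p = 0.0120, edgeR, 35.3% of genes called), a call lost without control 1 (adjusted p = 0.0677). The differences from CD4 (1.54 ± 0.66, adjusted p = 0.149) and Foxp3 T cells (1.61 ± 0.66, adjusted p = 0.123) did not pass in the same edgeR fit. Neither did those of CD4 (0.30 ± 0.71, adjusted p = 0.774, 35.6% of genes called) and Foxp3 T cells (0.23 ± 0.67, adjusted p = 0.842, 30.6% of genes called) from dendritic cells.

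Havcr2 was the only member with its highest mean level in monocytes and macrophages. Monocytes and macrophages had 173 ± 34.5 CPM and dendritic cells 125 ± 43.1 CPM (n = 7 each), while Foxp3, conventional CD4 and CD8 T cells had 115 ± 35.3, 114 ± 74.5 and 81.0 ± 46.1 CPM. CD8 T cells were lower than monocytes and macrophages by -1.43 ± 0.31 on the log2 scale (adjusted p = 3.55e-04, edgeR, 57.7% of genes called), and this call held without any single tumor. The differences of CD4 (-0.93 ± 0.32, adjusted p = 0.0151, 55% of genes called) and Foxp3 T cells (-0.92 ± 0.32, adjusted p = 0.0181, 56.7% of genes called) from monocytes and macrophages passed in the edgeR fit. So did that between monocytes and macrophages and dendritic cells (0.69 ± 0.27, adjusted p = 0.0349, 50.4% of genes called). Leaving out 1 tumor ended each of these 3 calls, without irradiated 3 or control 2 for CD4, without irradiated 4, control 1 or control 2 for Foxp3, and without irradiated 2, irradiated 3, control 1 or control 2 for dendritic cells, with adjusted p up to 0.0829, 0.0860 and 0.122. The last call also ended when all deposited cells were kept (adjusted p = 0.0586). No T gate was separated from dendritic cells in the edgeR fit. The differences were -0.73 ± 0.32 for CD8 (adjusted p = 0.0777, 35.3% of genes called), -0.23 ± 0.33 for CD4 (0.611, 35.6%) and -0.23 ± 0.34 for Foxp3 T cells (0.671, 30.6%). The CD8 difference passed without control 1 (adjusted p = 0.0450) and with all deposited cells (0.0403).

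Macrophage RNA in the T cell gate was counted beside Havcr2. The 15 macrophage genes checked summed to 485 to 863 CPM in T cells, all 15 with UMIs, against 32646 to 43016 CPM in monocytes and macrophages. The T cell gate itself limited myeloid genes to under 0.5% of UMIs, so a low sum was set in part by the gate. The part of macrophage RNA in the 614 Havcr2 UMIs of T cells was not tested.

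**Figure D2:**
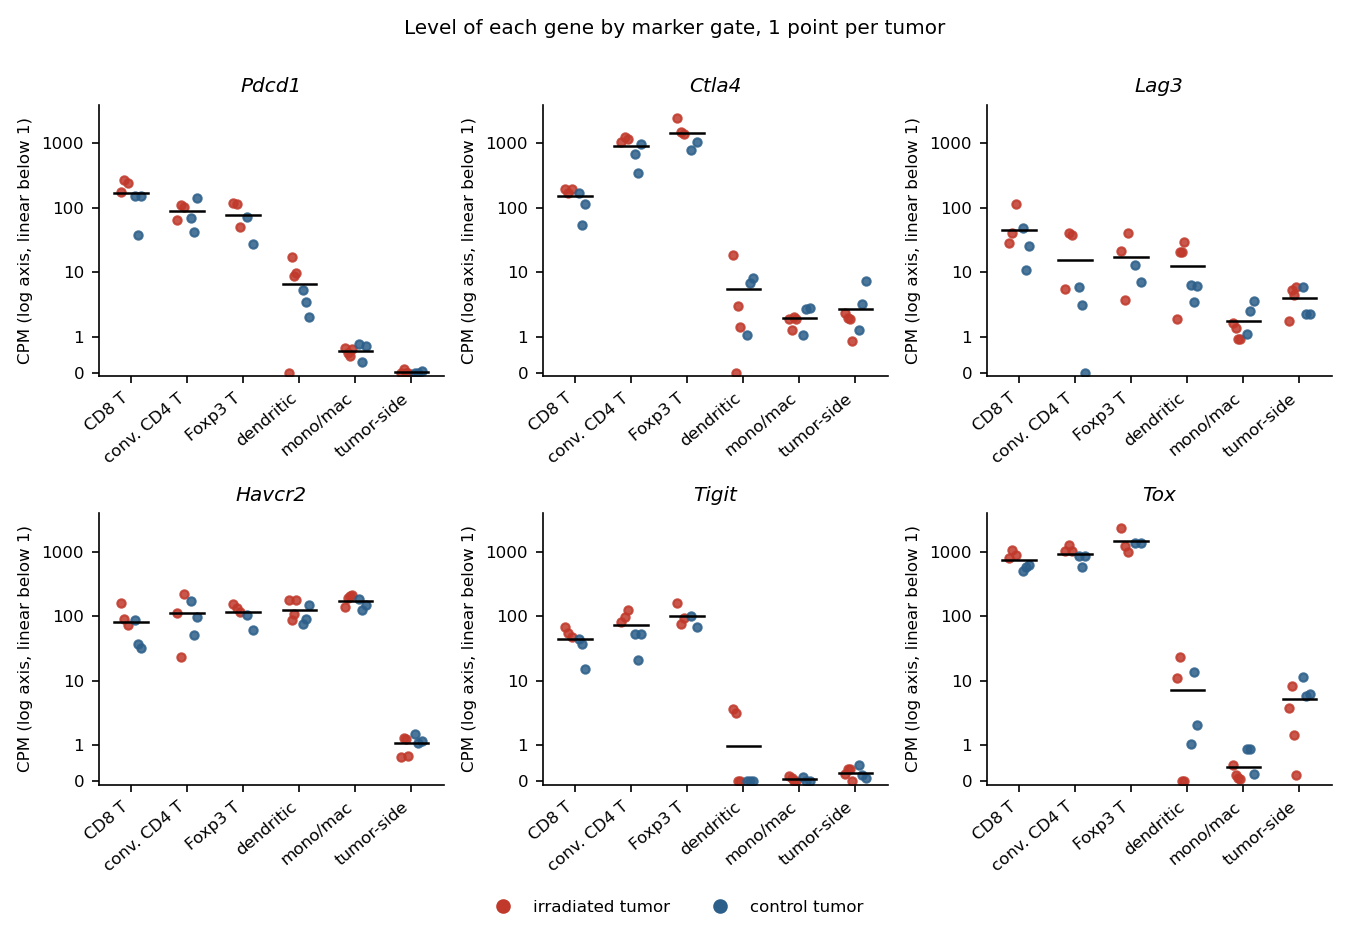
CPM of each gene in each marker gate (vertical axis logarithmic above 1 and linear below), with 1 point per tumor colored by group. Pdcd1, Ctla4, Tigit and Tox stand high in the T gates and near 0 in monocytes and macrophages, whereas Havcr2 stands at 126 to 212 CPM in monocytes and macrophages.

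Shares of cells with a UMI were taken after every cell was thinned to 2000 UMIs, which kept 1038 of 1279 T cells and 7631 of 8272 tumor-side cells. Pdcd1 was then detected in 28.3% ± 11.99 of CD8 T cells (SD, n = 6), 12.8% ± 4.03 of conventional CD4 and 17.4% ± 8.21 of Foxp3 T cells. CD8 T cells were thus highest by share as by CPM, while conventional CD4 and Foxp3 T cells changed places. Of the 7631 thinned tumor-side cells 0 had a Pdcd1 UMI, which allows a share of up to 0.0393% for counting error. Before thinning, 40.1% of CD8 T cells (median 4128 UMIs) and 0.0242% of tumor-side cells (median 16377.5 UMIs) had one. Ctla4 was detected in 77.3% ± 18.1 of Foxp3, 54.1% ± 11.7 of conventional CD4 and 26.6% ± 6.77 of CD8 T cells after thinning, against 0.508% ± 0.284 of tumor-side cells. Tox was detected in 62.3% ± 5.53 of all T cells (n = 7) and 0.777% ± 0.531 of tumor-side cells, and Tigit in 13.7% ± 3.78 and 0.0793% ± 0.104. Lag3 was found in 11.3% ± 6.48 of CD8 T cells, but in 3.13% ± 4.06 of conventional CD4 T cells against 0.832% ± 0.449 of tumor-side cells, where the spread reaches the background. Havcr2 was found in 12.8% ± 3.51 of T cells, 27.2% ± 4.25 of monocytes and macrophages and 0.210% ± 0.254 of tumor-side cells. Unthinned shares over the pooled T cells were 25.5% for Pdcd1, 55.0% for Ctla4, 8.44% for Lag3, 20.02% for Havcr2, 23.5% for Tigit and 71.1% for Tox, against 0.0242%, 4.96%, 5.31%, 1.80%, 0.435% and 3.47% of the deeper tumor-side cells.

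Detection of several of the genes in the same cell was common. The counts include Tox and Ctla4, the members most often detected in T cells. How often the genes would meet in a cell from their separate shares alone was not computed. Of 1038 thinned T cells, 23.4% had none of the 6, 27.4% had 1, 27.3% had 2, 15.6% had 3 and 5.39% had 4. Only 0.867% had 5 and 0.0963% had all 6. Foxp3 T cells had on average 2.16 ± 0.368 of the genes (n = 5), against 1.59 ± 0.248 in conventional CD4 and 1.53 ± 0.409 in CD8 T cells (n = 6 each).

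The group comparison asked whether the genes differed between irradiated and control tumors. Over all retained cells of a tumor, Pdcd1 was at 1.28, 1.94, 2.02 and 4.25 CPM in irradiated tumors 1 to 4 and at 0.846, 0.777 and 1.204 CPM in control tumors 1 to 3. Every irradiated tumor was above every control (two-sided exact permutation test, p = 0.0571, the smallest that this test allows for 4 against 3). How many of all genes did the same over whole tumors was not counted. Ctla4, Lag3, Havcr2, Tigit and Tox overlapped between the groups over all retained cells (exact permutation p from 0.114 to 0.457). Such a value over a whole tumor cannot tell more T cells from more RNA per T cell. T cells were 5.11% ± 1.27 of retained cells in irradiated and 2.88% ± 0.340 in control tumors (exact permutation p = 0.0571), also without overlap.

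Within the T cell gate no gene of the genome and none of the 6 passed the threshold. The edgeR test called 0 of 9678 genes (0% called, smallest adjusted p 0.161), with 1180 genes at an unadjusted p under 0.05, and DESeq2 called 14. All 6 genes had a positive fold change, while the median over all tested genes was -0.01.

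Ctla4 in T cells was at 466, 1236, 989 and 741 CPM in irradiated tumors 1 to 4 and at 464, 370 and 332 CPM in control tumors 1 to 3. All irradiated tumors were above all controls, as for 5.89% of all genes tested, although irradiated 1 exceeded control 1 by less than 3 CPM. The log2 fold change was 1.13 ± 0.32 (SE, adjusted p = 0.404, edgeR; exact permutation p on CPM 0.0571). Tox was at 714, 1238, 1134 and 892 CPM in irradiated and at 818, 676 and 652 CPM in control tumors. Irradiated 1 lay within the controls and the other 3 above them (log2 fold change 0.46 ± 0.20, adjusted p = 0.406, edgeR).

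Pdcd1 in T cells was at 96.1, 90.7, 144 and 131 CPM in irradiated and at 79.6, 39.0 and 110.4 CPM in control tumors, so the groups overlapped (0.58 ± 0.32, adjusted p = 0.440, edgeR). Lag3 was at 15.2, 19.6, 26.9 and 60.7 CPM against 17.3, 6.07 and 11.6 CPM, with irradiated 4 far above the rest (1.39 ± 0.55, adjusted p = 0.405, edgeR). Havcr2 was at 98.7, 96.8, 87.1 and 110.9 CPM against 95.1, 41.6 and 32.6 CPM (0.77 ± 0.33, adjusted p = 0.406, edgeR). Control 1 was within the irradiated range for Havcr2, and the other controls were far below it. Tigit was at 53.1, 91.9, 79.5 and 74.2 CPM against 63.1, 44.2 and 25.2 CPM, where irradiated 1 lay within the controls (0.72 ± 0.31, adjusted p = 0.406, edgeR). Leaving out 1 tumor moved Pdcd1 to 0.26 (without control 2) and 0.94 (without control 3), Lag3 to 0.79 (without irradiated 4) and Havcr2 to 1.38 (without control 1) and 0.50 (without control 3).

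A single library decided the count of calls. Without irradiated 1, the edgeR test called 997 genes in T cells, and Ctla4 (log2 fold change 1.32, adjusted p = 0.00671) and Tox (0.58, adjusted p = 0.0434) were among them. Without irradiated 1 all irradiated tumors belong to 1 technical set, so set and treatment can be told apart only through control 1. With the technical set as a term and all tumors kept, no member passed (Ctla4 0.75, adjusted p = 0.588; Tox 0.24, adjusted p = 0.690). Within set 1 (1 irradiated, 2 controls) the log2 difference was 0.41 for Ctla4 and 0.11 for Tox, and within set 2 (3 irradiated, 1 control) it was 1.06 and 0.40, each with too few tumors for a test. Havcr2 was at 1.40 in set 1 and 0.039 in set 2 in all T cells, at 2.15 and -0.11 in CD8 and at 0.67 and -1.27 in conventional CD4 T cells, so its difference was absent or turned within set 2.

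Other measures moved in the same libraries. The 9 tumor genes checked (Col1a1, Col2a1, Postn, Sparc, Col11a1, Sox9, Sox10, H19 and Crabp1), all with UMIs in the T cell gate, summed there to 5023 CPM in irradiated 1, 2229, 798 and 1026 CPM in irradiated 2 to 4, and 3225, 6068 and 4974 CPM in control tumors 1 to 3. In tumor-side cells the same genes summed to 14094 to 19775 CPM. Irradiated 1 thus resembled the controls in the tumor RNA of its T cells. Conversely, 4 T cell genes that no gate used (Cd2, Cd247, Lck and Thy1) summed to 995 to 1589 CPM in irradiated and 766 to 1155 CPM in control T cells, with irradiated 1 the lowest of its group and below control 1. Of the 4, Thy1 also had a UMI in 25.7% of tumor-side cells. Dendritic genes (9 of 11 with UMIs, Cd209a and Ccl22 at 0) summed to 101 to 191 CPM in irradiated and 145 to 660 CPM in control T cells, and B cell genes (3 of 4, Ms4a1 at 0) to 37.1 to 88.1 and 33.0 to 42.4 CPM.

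Relative to these 4 T cell genes, the group differences were smaller. Ctla4 was at 46.9, 81.0, 62.2 and 51.9 UMIs per 100 UMIs of the 4 genes in irradiated tumors 1 to 4 and at 40.1, 48.4 and 36.1 in control tumors 1 to 3. Irradiated 1 now lay below control 2, and the mean log2 values of the groups differed by 0.52 (exact permutation p = 0.114). Tox was at 62.5 to 81.1 per 100 in irradiated and 70.8 to 88.3 in control tumors, a difference in mean log2 of -0.095 (exact permutation p = 0.629). The other 4 members differed by 0.15 (Pdcd1) to 0.76 (Lag3) in mean log2 (exact permutation p from 0.114 to 0.686). The part of tumor RNA and of the technical set in the T cell differences was not tested further.

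**Figure D3:**
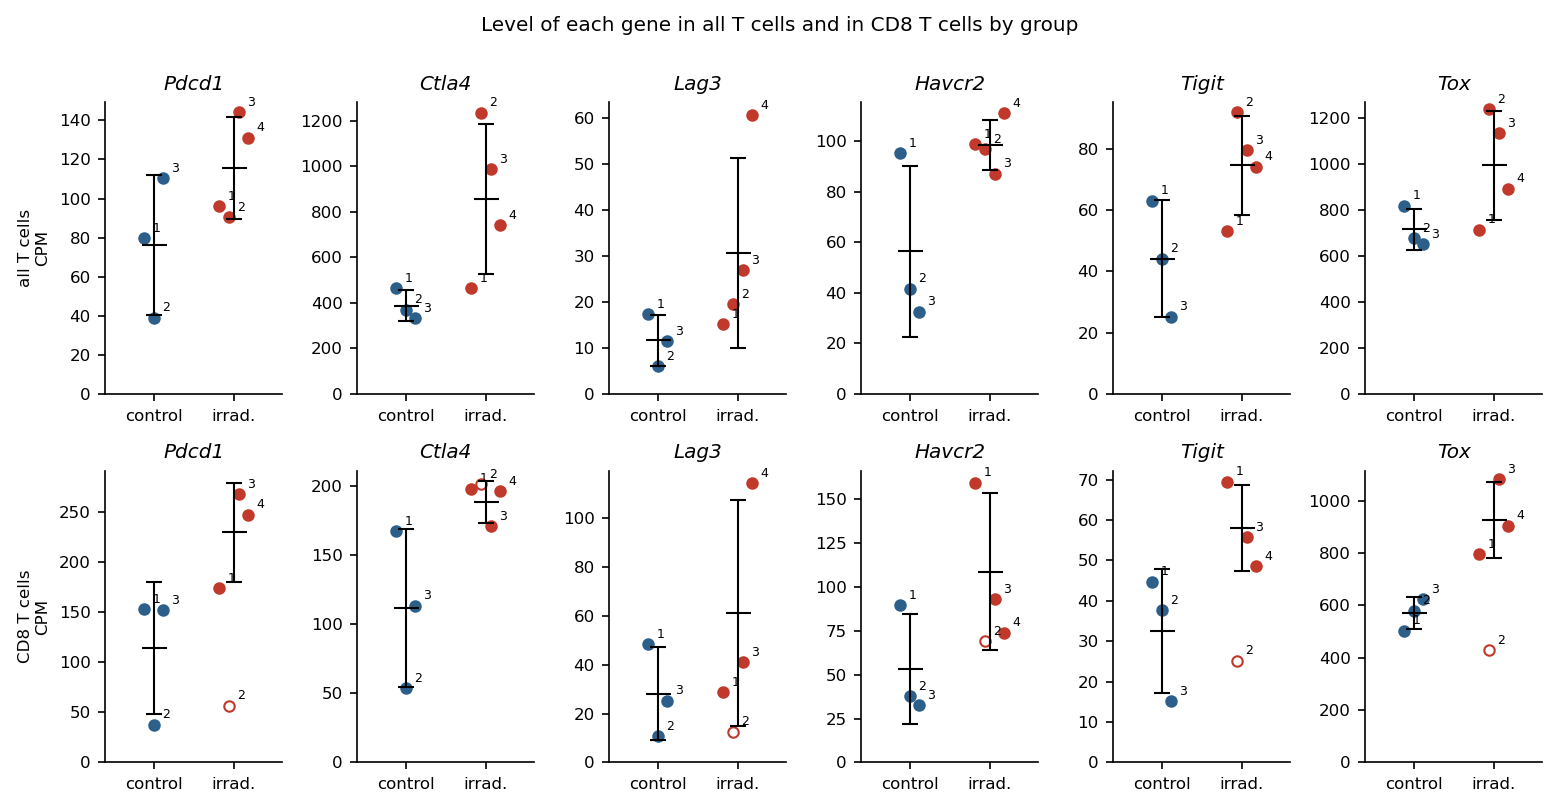
CPM (vertical axis) of each gene in all T cells (upper row) and CD8 T cells (lower row) of control (blue) and irradiated (red) tumors, numbered by replicate, with mean and SD as bars. The open circle is irradiated 2, with 18 CD8 T cells, which entered no mean or test. In all T cells irradiated 1 lies within the range of the controls for Pdcd1, Tox, Lag3 and Tigit and within 3 CPM of the highest control for Ctla4.

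CD8 T cells, the cells in which exhaustion is usually described, showed 0 of 5571 genes called (edgeR, 0% called, 239 genes at an unadjusted p under 0.05, and 0 with DESeq2). Pdcd1 was at 174, 268 and 247 CPM in irradiated 1, 3 and 4 and at 153, 37.6 and 151.5 CPM in control tumors 1 to 3. All 3 irradiated tumors were above the controls, as for 6.71% of all genes tested, with 173.7 against 152.8 CPM as the closest pair (log2 fold change 0.91 ± 0.42, adjusted p = 0.933, edgeR; exact permutation p = 0.1, the smallest that 3 against 3 allows). Irradiated 2, left out for its 18 CD8 T cells, stood at 56.7 CPM, below 2 of the controls.

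Tox in CD8 T cells was at 795, 1082 and 904 CPM in irradiated 1, 3 and 4 and at 503, 580 and 624 CPM in controls (0.66 ± 0.21, adjusted p = 0.933, edgeR). The groups did not overlap, but irradiated 2, at 428 CPM, was below every control. Per 100 UMIs of the 4 T cell genes the groups overlapped for both genes. Tox was then at 64.8 to 81.6 in the 3 tested irradiated tumors and 44.7 to 75.8 in the controls (exact permutation p = 0.8), and Pdcd1 at 16.8 to 17.8 and 4.90 to 18.4 (exact permutation p = 0.4). The remaining members had fold changes of 0.68 ± 0.35 (Ctla4), 0.85 ± 0.45 (Tigit), 0.99 ± 0.46 (Havcr2) and 1.05 ± 0.64 (Lag3), each with adjusted p = 0.933 (edgeR). These values moved with single tumors, Lag3 to 0.19 without irradiated 4 and 1.62 without control 1, Havcr2 to 0.59 without irradiated 1 and 1.62 without control 1, Ctla4 to 0.39 without control 2 and 1.09 without control 1, Tigit to 0.44 without control 3 and Pdcd1 to 0.55 without control 2. In CPM, Ctla4 (171 to 198 against 53.7 to 168) and Tigit (48.6 to 69.5 against 15.1 to 44.7) did not overlap between the tested tumors either, as for 6.71% of all genes tested. Both overlapped per 100 UMIs of the 4 T cell genes. After thinning, Pdcd1 was detected in 36.0% ± 3.88 of irradiated and 20.6% ± 12.9 of control CD8 T cells (n = 3 each, exact permutation p = 0.1), against 0 of 7631 tumor-side cells. Control 2 stood apart, at 6.06% against 25% and 30.6% in control 1 and 3, and without it the difference of 15.4 percentage points became 8.20. With cells thinned to 1000 UMIs the difference was 1.40 percentage points (exact permutation p = 0.9).

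Conventional CD4 T cells had 0 of 3472 genes called (edgeR, 0% called, 299 genes at an unadjusted p under 0.05, and 0 with DESeq2). Tigit was at 81.7, 98.6 and 126 CPM in irradiated 1, 3 and 4 and at 52.7, 21.5 and 54.4 CPM in controls, and Ctla4 at 1041, 1242 and 1155 CPM against 685, 343 and 990 CPM. Neither overlapped between the groups, as for 10.5% of all genes tested, and Tox (1029 to 1271 against 582 to 881 CPM) did not either. Per 100 UMIs of the 4 T cell genes Ctla4 did overlap, with irradiated 4 at 58.4 and control 3 at 59.9. So did Tox, at 52.0 to 62.0 in irradiated and 46.1 to 67.6 in control tumors. Tigit did not overlap on this scale either, at 4.78 to 6.34 in irradiated and 2.49 to 3.29 in control tumors. Its difference in mean log2 was 0.89 (exact permutation p = 0.1, the smallest that 3 against 3 allows). The log2 fold changes were 1.22 ± 0.43 for Tigit (adjusted p = 0.525) and 0.66 ± 0.30 for Ctla4 (adjusted p = 0.578) in the edgeR fit. Pdcd1 (0.13 ± 0.43) and Havcr2 (0.07 ± 0.71) were near 0 and Tox was 0.38 ± 0.24, none past the threshold, and Lag3, with 26 UMIs in the gate, was too low to be tested.

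In Foxp3 T cells 1 of 5460 genes was called (edgeR, 0.0183% called), and it was none of the 6. Ctla4 was at 2520, 1519 and 1421 CPM in irradiated 2, 3 and 4 and at 787 and 1051 CPM in control 1 and 2, without overlap, as for 15.5% of all genes tested (0.96 ± 0.31, adjusted p = 0.564, edgeR; exact permutation p = 0.2, the smallest that 3 against 2 allows). Ctla4 passed when the filter on low counts was dropped (1.04, adjusted p = 0.00521, edgeR), whereas a fit that included the technical set gave an adjusted p of 0.962. Per 100 UMIs of the 4 T cell genes it was at 113 to 125 in irradiated and at 71.1 and 126 in control tumors (0.32 in mean log2, exact permutation p = 0.8). Havcr2, at 117 to 156 CPM in irradiated and at 62.7 and 105 CPM in control tumors, did not overlap either (0.61 ± 0.35, adjusted p = 0.704, edgeR). Per 100 UMIs of the 4 genes it overlapped, at 7.74 to 10.3 against 7.5 and 9.49. Tox was at 2372, 1244 and 1016 CPM against 1399 and 1358 CPM, where irradiated 2 was above and the other 2 below both controls (0.14 ± 0.37, adjusted p = 0.947, edgeR). The called gene, named here after its value was seen, was Mest, an imprinted gene of the growing embryo. It had 0, 1 and 1 UMIs in irradiated 2, 3 and 4 and 114 and 86 UMIs (292 and 599 CPM) in control 1 and 2 (adjusted p = 0.00361, edgeR), and passed the filter on low counts only through the controls. The tumors left out for few cells had the opposite order, with 178.5 CPM in irradiated 1 and 67.0 CPM in control 3. In tumor-side cells Mest was at 630 to 1514 CPM, and the 9 tumor genes (8 with UMIs, Sox10 at 0) summed to 42.3, 2210 and 943 CPM in those irradiated and 5338 and 6802 CPM in those control Foxp3 T cells.

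Monocytes and macrophages had 0 of 13606 genes called (edgeR, 0% called, 645 genes at an unadjusted p under 0.05, and 6 with DESeq2). Havcr2, the member with its highest mean level in these cells, was at 139, 192, 206 and 212 CPM in irradiated tumors 1 to 4 and at 187, 126 and 149 CPM in controls. The groups overlapped through irradiated 1 and control 1, where every irradiated tumor exceeded every control for 2.68% of genes (0.29 ± 0.19, adjusted p = 0.799, edgeR). Lag3 (-0.99 ± 0.43, adjusted p = 0.799) and Ctla4 (-0.28 ± 0.38, adjusted p = 0.849) had the other sign in this edgeR fit, at means of 1.74 and 1.94 CPM. Pdcd1, Tigit and Tox were too low to be tested.

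**Figure D4:**
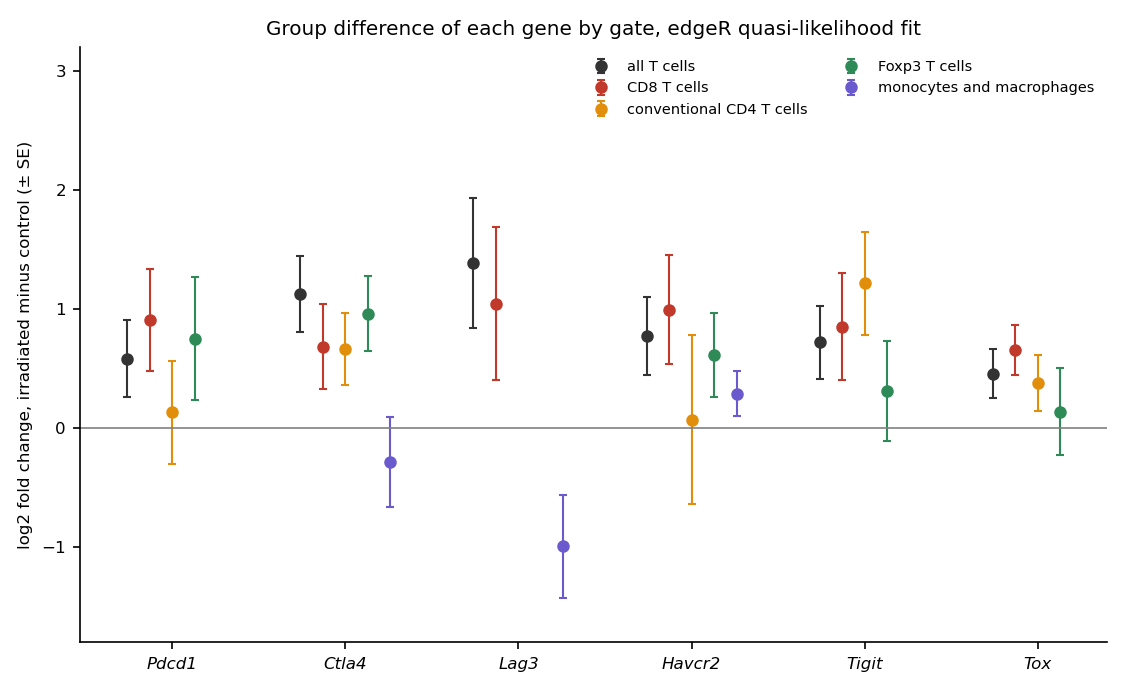
Log2 fold change (irradiated minus control, vertical axis) of each gene in each gate with its SE from the edgeR fit, with genes too low to be tested left out. Most points lie above 0 in the T gates, and none passed an adjusted p of 0.05.

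The make-up of the T cells was compared because Ctla4 and Pdcd1 differ between T gates. Foxp3 T cells were 7.30%, 28.3%, 20.2% and 19.9% of the T cells in irradiated tumors 1 to 4 and 27.6%, 12.8% and 9.89% in control tumors 1 to 3 (exact permutation p = 0.8). Irradiated 1, whose Ctla4 level in T cells was the lowest of its group (466 CPM), had the smallest Foxp3 share of all 7. Control 1, with nearly the same Ctla4 level (464 CPM), had a Foxp3 share of 27.6%. The part of T cell make-up in the Ctla4 levels was not tested. CD8 T cells were 26.4% ± 7.67 of irradiated and 20.9% ± 9.04 of control T cells (exact permutation p = 0.286). The median depth of T cells was 4403 ± 1252 UMIs in irradiated and 3436 ± 1571 UMIs in control tumors (exact permutation p = 0.457).

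Of 7 lists of related genes, none had a called member in any gate. Among the effector genes, which encode granule proteins, chemokines and cytokines of killer cells, 10 of 10 tested in all T cells had a fold change above 0 (median 0.68, against -0.01 over all genes). The largest were Prf1, perforin (1.88 ± 0.50), Gzmk (1.62 ± 0.85) and Gzmb (1.36 ± 0.58), granzymes, each with an adjusted p of 0.404 or more (edgeR). In CD8 T cells 9 of 9 were above 0, led by Ccl3, a chemokine (2.71 ± 0.42, adjusted p = 0.197, edgeR).

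The transcription factors of activation and exhaustion were mixed, with 10 of 15 above 0 in all T cells (median 0.31). Prdm1 (1.05 ± 0.24), Eomes (0.93 ± 0.38) and Batf (0.90 ± 0.27) had the largest values (adjusted p of 0.404 or more, edgeR). Other inhibitory receptors and ectoenzymes had 10 of 13 above 0 (median 0.37), led by Klrg1 (1.11 ± 0.79) and Entpd1, the ATP-cleaving enzyme CD39 (1.0 ± 0.35). Costimulatory receptors had 8 of 10 above 0 (median 0.48), with Tnfrsf18 at 0.73 ± 0.45, Tnfrsf4 at 0.67 ± 0.43 and Icos at 0.66 ± 0.22, and naive and stem-like genes had 9 of 11 above 0 (median 0.33). The cell cycle list had 3 of 8 above 0 (median -0.09), with Mki67 at 0.90 ± 0.17 (adjusted p = 0.404, edgeR), Tyms at -0.48 ± 0.22 and Ccna2 at -0.42 ± 0.36. The sum of the 4 T cell genes given above differed by 0.55 in mean log2 CPM.

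Ligands of the receptors had 5 of 10 above 0 in all T cells (median -0.06), where the MHC class II genes H2-Aa (-3.07 ± 1.12) and H2-Ab1 (-2.51 ± 0.85) had the largest values and are themselves among the dendritic genes above. In monocytes and macrophages 7 of 12 ligands tested were above 0 (median 0.21). Cd274, which encodes PD-L1, the ligand of PD-1, was at a log2 fold change of 0.88 ± 0.34 and Pdcd1lg2, PD-L2, at 0.71 ± 0.51 (adjusted p = 0.799 and 0.801, edgeR). Lgals3, galectin-3, which binds LAG-3, was at 0.47 ± 0.43 (adjusted p = 0.808, edgeR).

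CD8 T cells with a Pdcd1 UMI were compared with those without, within tumor, because PD-1 marks exhausted and activated cells. Of 317 CD8 T cells, 127 had a Pdcd1 UMI (median 4398 UMIs per cell) and 190 had none (median 4014.5 UMIs). In 5 tumors (irradiated 1, 3 and 4, control 1 and 3) both classes had at least 10 cells and entered the edgeR fit with tumor as a term. It called 0 of 3470 genes (0% called, smallest adjusted p 0.113, 241 genes at an unadjusted p under 0.05), and DESeq2 called 18.

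Tox was at 1108, 1524, 1096, 734 and 825 CPM in the cells with a Pdcd1 UMI of irradiated 1, 3, 4, control 1 and control 3 and at 566, 613, 626, 352 and 326 CPM in the cells without. The Pdcd1-positive cells were higher in 5 of 5 tumors, by 1.09 ± 0.20 on the log2 scale (adjusted p = 0.113, edgeR). Of the tumors left out, control 2 went the other way (433 CPM in its 6 positive cells, 639 CPM in the rest) and irradiated 2 the same way (920 CPM in 4 positive cells, 279 CPM in the rest). This difference passed when every cell was first thinned to 2000 UMIs (adjusted p = 0.0118), when positive cells needed 2 UMIs (0.0232), with no filter on low counts (0.00447) and with DESeq2 (0.00696), whereas leaving out irradiated 3 raised it to 0.741. Havcr2 was higher in 4 of 5 tumors (148 against 40.4 CPM, 1.73 ± 0.59, adjusted p = 0.541, edgeR; range over the alternatives 0.0289 to 0.994) and Ctla4 in 4 of 5 (198 against 132 CPM, 0.60 ± 0.42, adjusted p = 0.883, edgeR). Lag3 and Tigit were too low to be tested. Pooled over the 7 tumors, Lag3 was detected in 37.0% of cells with a Pdcd1 UMI and 7.37% of those without, Havcr2 in 42.5% and 13.7%, Ctla4 in 60.6% and 28.9%, Tigit in 27.6% and 18.9% and Tox in 92.9% and 60.5%. These pooled shares are descriptions of cells and carry no test.

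Of the naive and stem-like genes, 0 of 6 tested had a value above 0 in CD8 T cells with a Pdcd1 UMI relative to those without, with a median of -1.55 (0.00 over all genes). Satb1, a chromatin organizer, was at -2.65 ± 0.56 (adjusted p = 0.259), Lef1 at -1.86 ± 0.52 (0.313) and Tcf7, whose product TCF-1 keeps T cells stem-like, at -1.61 ± 0.31 (0.113), all in the edgeR fit. Of the activation and exhaustion factors 9 of 10 were above 0 (median 0.51), with Nr4a2, induced by T cell receptor signals, at 1.72 ± 0.29 (adjusted p = 0.113, edgeR), Ikzf2 at 1.29 ± 0.43 and Bhlhe40 at 0.84 ± 0.35. Costimulatory receptors were divided, with 4 of 7 above 0 (median 0.18), Tnfrsf9, which encodes 4-1BB, at 1.84 ± 0.40 (adjusted p = 0.184, edgeR), Cd226 at -0.998 ± 0.585 and Tnfrsf18 at 0.30 ± 0.41. So were the other inhibitory receptors and ectoenzymes, with 3 of 5 above 0 (median 0.068), Entpd1 at 1.302 ± 0.373, Nt5e, the ectoenzyme CD73, at -1.17 ± 0.42 and Klrc1 at 1.09 ± 0.40 (adjusted p of 0.322 or more, edgeR). Of the effector genes 6 of 7 were above 0 (median 0.45), with Ifng, interferon gamma, at 0.79 ± 0.44 (0.796) as the largest. None of these passed.

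**Figure D5:**
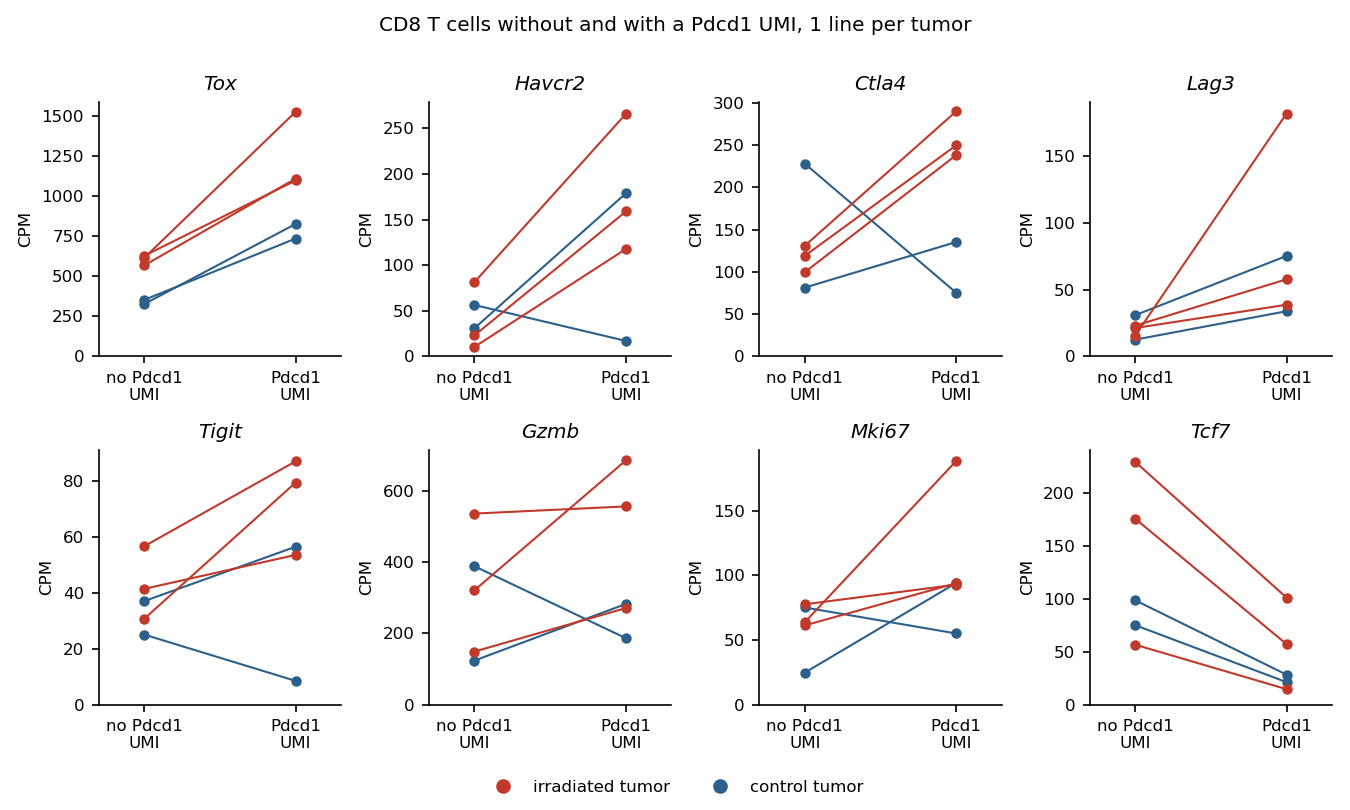
CPM (vertical axis) of the other genes in CD8 T cells without and with a Pdcd1 UMI, with 1 line per tumor joining both classes and color giving the group, for the 5 tested tumors. Tox is higher in the cells with a Pdcd1 UMI in each of them, while control 2, not drawn, went the other way.

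Likeness over gates was described by Pearson's r of log2(CPM + 1) over 31 sums of gate and tumor (5 gates) among 8583 genes. The sums share tumors and follow the difference between T and myeloid cells, so r carries no test. Tigit and Tox were most alike (r = 0.98), followed by Ctla4 and Tigit (0.95), Ctla4 and Tox (0.94) and Pdcd1 and Tox (0.91). Havcr2 was negatively related to each of the other 5 (r from -0.45 to -0.29). Among genes outside the set, Pdcd1 was most like Gimap1 (0.949), Gstp3 (0.948) and D16Ertd472e (0.946). Ctla4 was most like Gata3 (0.975), Icos (0.972) and Slamf1 (0.970). Tigit was most like Cd6 (0.984), Gimap7 (0.980) and Cd2 (0.979), and Tox like Ikzf3 (0.980), Skap1 (0.980) and Cd6 (0.978). Lag3 had no close partner, with Trappc8 at 0.80, and Havcr2 was most like Tmbim4 at 0.73.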

How the data were processed

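For each of 7 tumors 1 library was made (10x 3′ assay, 10000 cells loaded). The authors deposited raw UMI counts of every gene in each called cell, and the headers of the matrices name Cell Ranger 8.0.0. The study's methods name an earlier version and alignment to mm10. The build of the counts and whether intronic reads were counted are not given in the sources used here. The 6 genes and all lists, gates and tests were chosen with earlier results of these data known. Cells beyond 3 median absolute deviations in depth or quality were removed. T cells needed 2 UMIs of 6 CD3 and T cell receptor genes, 1 of them of a CD3 gene, under 0.5% myeloid UMIs and at most 1 B cell UMI, and other gates used marker UMIs likewise. Klra4 was dropped from the NK list after the gate as first written held 5314 cells, 99.4% of them with Col1a1. The NK tests were therefore not run. Counts were summed per tumor and gate and tested with edgeR 4.0.16 (filterByExpr, TMM, robust quasi-likelihood, Benjamini-Hochberg, threshold 0.05) in R 4.3.3, with DESeq2 1.42.0 as an alternative. The scripts were tested on simulated data. Single values were compared with two-sided exact permutation tests (SciPy 1.17.1). Other inhibitory, costimulatory, transcription factor, naive, effector, ligand and cell cycle lists gave the 3 members with the largest absolute log2 fold change as named genes, and some genes of the lists are not reported here. Cells were thinned to 2000 UMIs (seed 1) for shares. Scrublet in scanpy 1.11.5 called 529 doublets (1.54%), with 2 in irradiated 1 and 4 in irradiated 3, where it did not work, and none were removed. The ratio to 4 T cell genes, made from deposited counts, was chosen after seeing the data. Same-numbered replicates of the groups did not deviate together (r from -0.37 to -0.04 over 9271 genes), so no block was used. Replicates are tumors, 1 per library. Totals of 53496570 to 153044123 UMIs per library set the precision, and the limit given for a count of 0 covers counting error only.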

Additional observations from a re-analysis of the deposited data

Results flagged for a closer look

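Of 21 groups of 4 tumors checked for a tumor far from the others, 1 stood out, and chance alone gives about 1 in 20. Ctla4 in dendritic cells was at 18.6 CPM in irradiated 1, while irradiated 2, 3 and 4 were at 0, 2.96 and 1.42 CPM. The dendritic gate of the 7 tumors held 19 Ctla4 UMIs in 281 cells. Differences between gates in the effect of group were compared in 21 exact permutation tests, none of which could pass 0.05 with so few tumors (smallest possible p 0.0571 in 3, 0.1 in 6 and 0.333 in 12 of them).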

How the results depend on the processing

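Members kept their direction and their side of the threshold in 370 of 390 alternative values by group, 753 of 780 between gates, 32 of 37 by Pdcd1 detection and 154 of 162 shares. The cause of the other values was not tested. For the shares and the ratios to the 4 T cell genes, the exact permutation test cannot give a p under 0.0571. Only their direction could therefore change. No member passed by group to begin with, so keeping its side there meant staying short of the threshold. Without a filter on low counts the genes called by group were 19 in all T, 49 in CD8, 65 in CD4 and 177 in Foxp3 T cells. DESeq2 called 14 in all T cells, 18 in Foxp3 T cells and 6 in monocytes and macrophages. With the technical set as a term 1 gene was called in CD8 and 0 in Foxp3 T cells, and the fold changes turned to -0.063 for Havcr2 in CD4 T cells and 0.097 for Ctla4 in monocytes and macrophages. In Foxp3 T cells 2 genes were called with a myeloid limit of 0.2% and 0 without doublets, where Tox was -0.051.

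Leaving out 1 tumor gave 0 to 997 called genes in all T, 0 to 51 in CD8, 0 to 11 in Foxp3 T cells and 0 to 6 in monocytes and macrophages, with the highest count without irradiated 1, or without irradiated 2 for Foxp3. It gave 478 to 1113 genes between CD8 and CD4 and 31 to 107 between CD4 and Foxp3 T cells. By group it moved Pdcd1 from -0.18 to 0.53 and Havcr2 from -0.74 to 0.63 in CD4, and Tigit from -0.068 to 0.63 and Tox from -0.33 to 0.35 in Foxp3 T cells. Between CD4 and Foxp3 T cells it moved Havcr2 from -0.36 to 0.26, Lag3 from -0.73 to 0.24 and Tigit from -0.49 to 0.059, and between CD4 T and dendritic cells it moved Lag3 from -0.075 to 0.45. Between CD4 and Foxp3 T cells Havcr2 was 0.0043 with 3 UMIs for the T gate, and Lag3 was -0.000767 with a myeloid limit of 0.2%.

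By Pdcd1 detection 11 genes were called after thinning, 11 with 2 Pdcd1 UMIs, 84 without the filter, 18 with DESeq2 and 0 to 8 with 1 tumor left out. Relative to the 4 T cell genes, Tox (-0.095) in all T, Pdcd1 (-0.18) and Havcr2 (-0.66) in CD4 and Tigit (-0.30) and Tox (-0.57) in Foxp3 T cells turned. Of the shares, in percentage points, Lag3 in all T cells was -0.43 within set 1, and within set 2 Havcr2 was -1.93 and Tigit -0.20 in all T cells and Tigit -14.9 and Tox -5.43 in CD8 T cells, with Tigit in CD8 at -3.30 to 7.73 when 1 tumor was left out.

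The replicate numbers did not pair the tumors (r of same-numbered tumors -0.37, -0.20 and -0.04). A replicate block called 2 genes in CD4 T cells and 0 in all T cells, CD8 T cells and monocytes and macrophages, and turned Lag3 in CD8 (-0.089) and Pdcd1 (-0.31) and Havcr2 (-1.16) in CD4 T cells. In Foxp3 T cells no block could be fitted, since too few numbers were shared. NK cells were too few for any of their planned tests, which were not run. Lag3, with 178 UMIs in T cells, is limited by depth.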
